A study of Mus musculus with 2 samples.

Results

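Genes of lymphocyte positioning, 9 in number, were followed by symbol through single-cell RNA-seq of immune cells from mouse pancreatic islets, and all 9 were present among the 32285 genes measured. They comprise 4 ligand genes (Cxcl13, Ccl17, Ccl22 and Ebi3) and 5 receptor genes (Cxcr5, Ccr7, Ccr4, Cxcr4 and Gpr183). The members were chosen by name as cues for follicle-like structures in insulitis, the immune infiltration of islets. Earlier results of these data were known when they were chosen. The study has 2 libraries from female mice aged 12 weeks, 1 for each genotype: NOD, called WT NOD, and NOD.Cxcl16-/-. NOD (non-obese diabetic) mice develop autoimmune diabetes spontaneously. Islets were picked by hand and dispersed, and living cells with CD45 and without CD31 at the surface were sorted. The labels do not give the number of mice behind a library, and dissociated cells carry no record of their place in the tissue.

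In lymphoid organs, chemokines tell cells where to settle. CXCL13 draws CXCR5-bearing B cells and follicular helper T cells into follicles, while CCR7 takes T cells and mature dendritic cells towards the T zone. GPR183 (EBI2) senses an oxysterol that keeps activated B cells and some T cells and dendritic cells at follicle borders, and it is turned down in germinal centres. CXCR4 binds CXCL12 and serves the germinal-centre dark zone, bone marrow homing and many other settings. CCL17 and CCL22 are made mainly by dendritic cells and call CCR4-bearing T cells, regulatory T cells (Treg) among them. EBI3 is no chemokine: it pairs with the IL-27 or IL-12 p35 subunit to make a cytokine.

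Cxcl16, the gene named by the genotype, was read first. It stood at 66.9 CPM in WT NOD (the gene's UMIs in every 1000000 UMIs of the cells taken, a UMI being 1 tagged transcript) and at 96.9 CPM in the other library. Macrophage-like cells held 892.8 CPM of it in WT NOD and 529.2 CPM in the other library. Transcripts of Cxcl16 were thus present in the library labelled NOD.Cxcl16-/-, which goes against the label. The labels do not say which part of the gene was removed, and reads from a 3' end need not report it. For this reason every comparison below is between 2 libraries, and no direction is assigned to the genotype.

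The WT NOD library held 13859 barcodes with 93553185 UMIs, of which 10715 were kept at a median of 3871 UMIs. The library labelled NOD.Cxcl16-/- held 10554 barcodes with 98681133 UMIs, of which 9323 were kept at a median of 4900 UMIs. Cells were placed in classes by marker genes, and 12 classes had at least 20 cells in each library. At least 1 UMI of Ptprc, which encodes CD45, was found in 73.7% and 87.5% of kept cells, and of Pecam1, which encodes CD31, in 19.6% and 24.4%. The 2 libraries shared 45 barcode sequences, 32 of them among kept cells. A class, small ones included, was given to 6473 and 6208 kept barcodes. Barcodes with markers of more than 1 lineage were left out of the classes and numbered 446 and 609. Also outside the classes were 2602 and 1688 T cells with no subset assigned, and 1194 and 818 unassigned barcodes. With 1 library per group there is no replicate check and no test: intervals are 95% intervals, exact Poisson for CPM and exact Clopper-Pearson for shares of cells, and they cover counting error only.

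Promoter sequences are shown for the 4 ligand genes, because Ccl17 and Ccl22 are neighbours that differed in their leading cell class, and because Ccl22 and Ebi3 led in the same one. The sequences come from RefSeq (build GRCm38.p6, + strand, 5′ to 3′) and end just before the first annotated start of the gene. Capitals mark matches, on either strand, to GGGA and CC parted by any 4 bases, a loose form of the NF-κB site.
Cxcl13: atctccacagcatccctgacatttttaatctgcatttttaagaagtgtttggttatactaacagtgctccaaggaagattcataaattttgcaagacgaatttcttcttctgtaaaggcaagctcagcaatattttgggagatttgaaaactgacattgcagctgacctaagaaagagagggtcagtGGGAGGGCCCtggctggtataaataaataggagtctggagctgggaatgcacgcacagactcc
Ccl22: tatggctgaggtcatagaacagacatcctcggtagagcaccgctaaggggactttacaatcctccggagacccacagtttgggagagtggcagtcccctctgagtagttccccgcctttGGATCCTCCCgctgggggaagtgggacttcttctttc
Ccl17: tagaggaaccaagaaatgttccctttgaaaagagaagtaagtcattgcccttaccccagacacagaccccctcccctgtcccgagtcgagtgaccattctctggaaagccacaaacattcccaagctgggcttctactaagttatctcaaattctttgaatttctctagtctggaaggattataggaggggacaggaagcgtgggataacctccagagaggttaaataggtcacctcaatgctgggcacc
Ebi3: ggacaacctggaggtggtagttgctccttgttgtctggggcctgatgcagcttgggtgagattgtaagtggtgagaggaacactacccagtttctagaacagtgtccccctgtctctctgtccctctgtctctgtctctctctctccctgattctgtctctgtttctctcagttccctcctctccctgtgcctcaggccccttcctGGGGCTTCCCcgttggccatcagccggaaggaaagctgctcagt

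The sequences lie at chr5:95956689-95956938 for Cxcl13, chr8:94745434-94745589 for Ccl22, chr8:94810203-94810452 for Ccl17 and chr17:55952373-55952622 for Ebi3. A promoter was found for 7 of the 9 members, not for Cxcr5 and Ccr7. In the 250 bases before the RefSeq start, the motif was present in Cxcl13, Ccl22 and Ebi3 and not in Ccl17, Ccr4, Cxcr4 or Gpr183. Of the 32851 RefSeq mouse promoters, 17.6% held it in the same window, so a match in 3 of 7 describes these letters and shows no binding. The gene bodies of Ccl22 and Ccl17, both protein-coding, lie on chromosome 8 with 58753 bases between them, Ccl22 first (GENCODE M21).

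**Figure D1:**
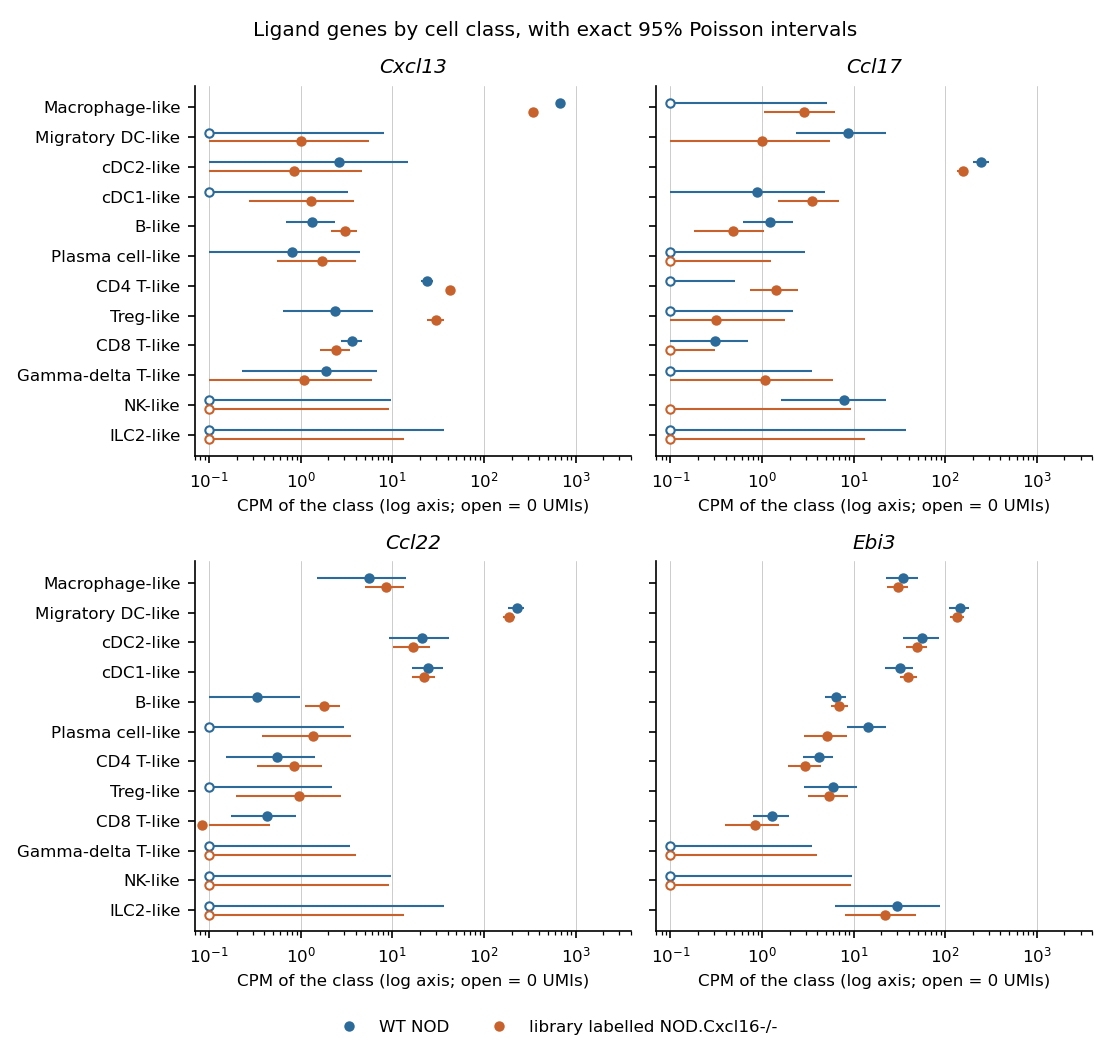
CPM of the 4 ligand genes (horizontal log axis) in 12 cell classes (rows) for WT NOD in blue and the library labelled NOD.Cxcl16-/- in orange. Points are class sums, lines are exact 95% Poisson intervals drawn from 0.1 upwards, and open points at 0.1 stand for 0 UMIs; macrophage-like cells led Cxcl13 and cDC2-like cells led Ccl17.

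Cxcl13, the B-cell follicle chemokine, was led by macrophage-like cells, with CD4 T-like cells next among the 12 classes. Macrophage-like cells held 674.5 CPM (615.9 to 737) in WT NOD, from 488 UMIs in 68 cells. In the library labelled NOD.Cxcl16-/- they held 344.4 CPM (319.8 to 370.4), from 725 UMIs in 182 cells. Both levels were far above those of any other class, and the WT NOD level was 1.96-fold higher, a log2 ratio of -0.97 (-1.14 to -0.80, the other library over WT NOD). The transcript sat in few cells: 12 of 68 and 25 of 182 macrophage-like cells had a Cxcl13 UMI. After each cell was thinned to 2000 UMIs, the shares were 11.7% (4.82 to 22.6) and 10.5% (6.32 to 16.0), which overlap, against 0.549% and 0.444% of B-like cells, a class that should lack the gene.

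Single macrophage-like cells carried much of the Cxcl13 total. The richest 7 cells held 98.2% of the class's Cxcl13 UMIs in WT NOD and the richest 18 held 98.9% in the other library, and the top cells held 136 and 306. Without the richest cell of each library the levels were 495.6 and 200.7 CPM, a log2 ratio of -1.30. The ratio moved most with doublet removal, which took 15 of 83 macrophage-like cells from WT NOD and 0 of 182 from the other library. With those barcodes kept, the levels were 1499 and 344.4 CPM and the log2 ratio -2.12. With mixed-lineage barcodes placed in their best class it was -0.59. Its size therefore depended on which barcodes were counted, while WT NOD stayed higher under each of these settings. Transcripts of other lineages were present in the class, with 5 T markers summing to 62.2 and 48.9 CPM, 6 B markers to 47.0 and 26.6 CPM and 7 islet endocrine genes to 10430 and 11030 CPM. The 8 macrophage gate markers themselves summed to 10780 and 16190 CPM. The part of these in the Cxcl13 ratio was not tested.

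Macrophage-like cells with Cxcl13 also held more Ccl8, a CC chemokine of macrophages, than those without. Ccl8 stood at 3984 against 658.1 CPM in WT NOD and at 11780 against 1415 CPM in the library labelled NOD.Cxcl16-/-. C1qa, a complement gene of tissue macrophages and a gate marker, stood at 8799 against 3849 CPM and at 8635 against 6614 CPM. Cxcl9, an interferon-induced chemokine, stood at 5043 against 3752 CPM and at 5410 against 3173 CPM. All 3 genes were thus higher in the Cxcl13 cells of both libraries, whereas Cxcl16 was close, at 971.8 against 878 CPM and at 544.2 against 526.9 CPM. Gpr183 went the other way, at 87.6 against 203.5 CPM and at 43.0 against 186.2 CPM. Median depth was lower in the cells with Cxcl13, 9546 and 10750 UMIs against 11747 and 11518. These genes were picked after their values were seen, and the levels are descriptions within a library.

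Among CD4 T-like cells, Cxcl13 stood at 23.8 CPM (20.3 to 27.6) in WT NOD and, in the library labelled NOD.Cxcl16-/-, at 42.5 CPM (38.2 to 47.2). The direction was opposite to that in macrophage-like cells, with a log2 ratio of 0.84 (0.57 to 1.11). T cells with no subset assigned, outside the 12 classes, stood higher in WT NOD, at 27.5 and 17.2 CPM from 261 and 150 UMIs. The CD4 T-like ratio reversed to -0.64, with 84.3 and 53.9 CPM, when mixed-lineage barcodes were placed in their best class. That reversal rested on 1 WT NOD barcode with 336 Cxcl13 UMIs: without the richest barcode of each library the levels were 41.3 and 46.4 CPM, a log2 ratio of 0.17 (-0.04 to 0.38). The share of CD4 T-like cells with a UMI did not follow the CPM: 34 of 1256 cells, or 2.71%, and 32 of 1285 cells, or 2.49%. Cells with at least 5 Cxcl13 UMIs numbered 7 and 13 and held 78.4% and 90.8% of the class total. The highest 3 cells held 56, 29 and 21 UMIs in WT NOD and 58, 42 and 39 in the other. Without the richest cell of each library the log2 ratio was 1.15.

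The Cxcl13-rich CD4 T-like cells, a split chosen after the values were seen, did not carry the follicular helper list as a whole. Bcl6, the master regulator of follicular helper T cells, stood at 99.8 CPM in them against 43.7 CPM in cells without Cxcl13 in WT NOD, and at 61.5 against 56.2 CPM in the library labelled NOD.Cxcl16-/-. Il21, the helper cytokine gene, stood at 122.9 against 85.8 CPM and at 56.4 against 68.6 CPM, and Pdcd1, which encodes PD-1, at 145.9 against 82.1 CPM and at 97.5 against 102.3 CPM. Sh2d1a stood at 491.4 against 299.9 CPM and at 271.9 against 311.4 CPM. In WT NOD, Bcl6 and Sh2d1a were thus higher in the rich cells beyond their intervals. Intervals overlapped there for Il21 (70.2 to 199.5 against 78.9 to 93.0) and Pdcd1 (87.8 to 227.8 against 75.4 to 89.2). In the other library Bcl6 was close and the rest were no higher. Icos stood lower in both libraries, at 199.6 against 479.3 CPM and at 436 against 562.1 CPM, as did Maf, at 238 against 407.8 CPM and at 205.2 against 299.9 CPM. Slamf6, a receptor of T and B cells, was also lower in both, at 38.4 against 120.8 CPM and at 66.7 against 113.6 CPM. Cd200 went the other way, at 360.9 against 331.7 CPM, where intervals overlapped. In the other library it stood at 446.3 (357.4 to 550.5) against 279.6 CPM (268.1 to 291.5). Tox2 stood at 61.4 against 65.1 CPM and at 61.55 against 72.8 CPM. Cd40lg stood at 69.1 against 131.2 CPM and at 112.8 against 116.9 CPM. P2rx7 stood at 30.7 against 19.6 CPM and at 5.13 against 19.1 CPM, and Il4 had no UMI in the rich cells. Cxcr5 had a UMI in 2 of 7 and 4 of 13 of the rich cells. Gpr183 had none in the 7 cells and a UMI in 2 of 13, against 145.3 and 138 CPM in cells without Cxcl13. The 8 macrophage gate markers summed to 0 and 3 UMIs in the rich cells, and to 4 UMIs in 27 cells and 20 UMIs in 19 cells with 1 to 4 Cxcl13 UMIs. Barcodes that passed both the T and macrophage gates had been left out beforehand, so low sums were in part fixed by the gating. Median depth was higher in the rich cells, 8310 and 11095 UMIs against 4137.5 and 4626 in cells without Cxcl13, and all these levels rest on 7 and 13 cells.

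Naive-type CD4 T-like cells held little Cxcl13. Cells with at least 4 of 7 naive genes (such as Lef1 and Tcf7) stood at 4.86 and 1.95 CPM, while those with at most 1 stood at 64.9 and 115.1 CPM. Helper-gated cells, with Pdcd1 and either Il21 or Bcl6, held 67.9 and 82.1 CPM against 10.2 and 28.6 CPM in the rest. Cells with a Cxcr5 UMI held 79.0 and 89.5 CPM against 16.1 and 32.9 CPM in cells without. The order was the same in both libraries for each of these splits, but few cells set these levels. The 7 and 13 cells with at least 5 Cxcl13 UMIs held 78.4% and 90.8% of the class total. Of those cells, 2 and 4 had a Cxcr5 UMI. Median depth was also higher in helper-gated cells, 6838 and 7685.5 UMIs against 4001 and 4431, and its part was not tested.

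Treg-like and B-like cells gave low Cxcl13 levels. Treg-like cells held 4 UMIs in WT NOD and 94 in the library labelled NOD.Cxcl16-/-, or 2.38 and 29.8 CPM. Of these 94 UMIs, 80 came from 1 cell and 9 from another. B-like cells held 1.34 and 3.01 CPM, from 12 and 37 UMIs, with 14 of the 37 in 1 cell. Their share of cells with a UMI served as background. In migratory DC-like cells 0 and 1 UMIs were seen, and in NK-like and ILC2-like cells 0 in both libraries. There 0 counts allow up to 9.59 and 36.99 CPM in WT NOD (upper ends of the exact Poisson intervals).

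**Figure D2:**
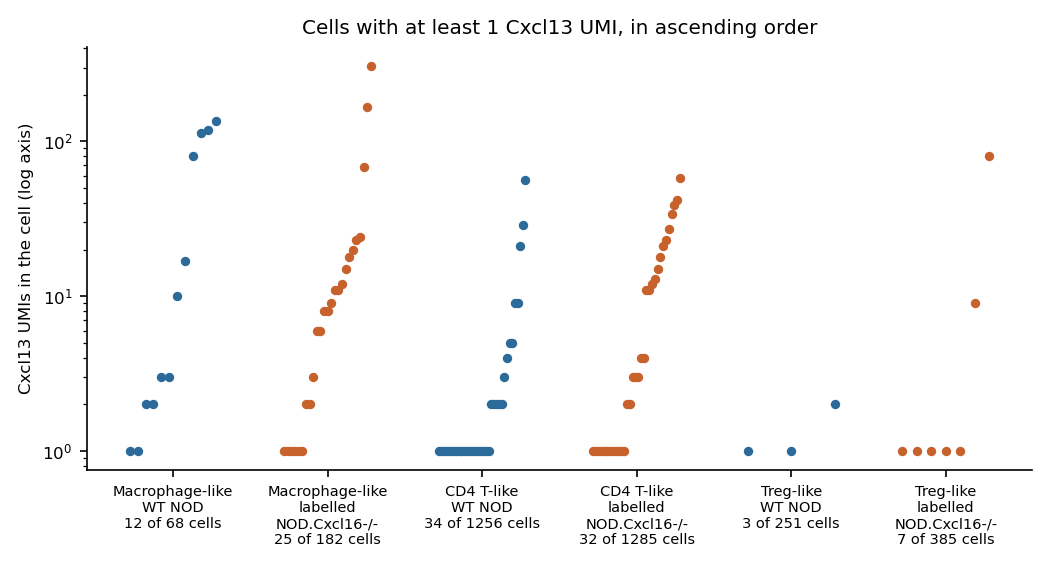
Cxcl13 UMIs (vertical log axis) in each macrophage-like, CD4 T-like and Treg-like cell with at least 1 UMI, in ascending order within each library (blue, WT NOD; orange, library labelled NOD.Cxcl16-/-). The class totals rest on few cells, reaching 136 and 306 UMIs in macrophage-like, 56 and 58 in CD4 T-like and 80 in 1 Treg-like cell.

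Ccl22, a CCR4 ligand of mature dendritic cells, was led by migratory DC-like cells, which are dendritic cells with the Fscn1 and Cacnb3 programme. They held 226.6 CPM (185.2 to 274.6) in WT NOD, with a UMI in 16 of 49 cells. In the library labelled NOD.Cxcl16-/- they held 187.7 CPM (161.8 to 216.5), with a UMI in 26 of 83 cells. The intervals overlapped, and the log2 ratio was -0.27 (-0.63 to 0.09). Conventional dendritic cells came next, with cDC1-like cells at 24.7 and 22.2 CPM and cDC2-like cells at 21.2 and 16.7 CPM, 2 neighbours whose intervals overlapped. Macrophage-like cells followed at 5.53 and 8.55 CPM, and every lymphoid class was below 2 CPM in both libraries.

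Doublet removal was uneven for this class too, taking 30 of 79 migratory DC-like cells from WT NOD and 0 of 83 from the other library. With doublets kept, Ccl22 stood at 291.9 and 187.7 CPM and passed 1.5-fold, at a log2 ratio of -0.64. After thinning, 15.4% and 20% of migratory DC-like cells had a Ccl22 UMI, against 0.061% and 0.296% of B-like cells.

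Ccl17, the other CCR4 ligand, was close to absent from migratory DC-like cells and was led by cDC2-like cells instead. Migratory DC-like cells held 4 UMIs in WT NOD and 1 in the library labelled NOD.Cxcl16-/-, too few for a ratio. cDC2-like cells held 246 CPM (198.5 to 301.3) from 93 UMIs in 26 cells and 154.6 CPM (133.1 to 178.5) from 185 UMIs in 83 cells. The gene was among the 10 leading genes of that class, which was gated on other markers. Few cells carried it: 7 of 26 and 4 of 83 had a UMI, and the 2 richest held 52 and 28 UMIs in WT NOD and 114 and 59 in the other library. Those 2 cells made up 86.0% and 93.5% of the class total. The log2 ratio was -0.67 (-1.04 to -0.29), or 1.59-fold higher in WT NOD, and -0.93 without the richest cell of each library. The interval takes no account of this clumping. The class of comparison was chosen after the values were seen, and with clusters in place of gates the log2 ratio was -0.27 (-0.60 to 0.07).

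The 2 neighbouring genes Ccl17 and Ccl22 were thus split between dendritic classes in both libraries. In cDC2-like cells, 3 cells in WT NOD and 1 in the other library had UMIs of both. Among migratory DC-like cells it was 3 and 0. When every gate required 1 marker more, cDC2-like cells gave no ratio and migratory DC-like cells led Ccl17.

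Ebi3 was led by migratory DC-like cells and reached further into the myeloid classes than Ccl22. It stood at 143.8 CPM (111.2 to 183.0) in WT NOD and, in the library labelled NOD.Cxcl16-/-, at 133.8 CPM (112.1 to 158.4), which overlap at a log2 ratio of -0.10 (-0.54 to 0.34). Next were cDC2-like cells at 55.5 and 49.3 CPM, cDC1-like cells at 31.8 and 39.6 CPM and macrophage-like cells at 34.6 and 30.4 CPM, 3 classes whose intervals overlap. ILC2-like cells gave 3 and 6 UMIs, and plasma cell-like cells 14.4 and 5.14 CPM. B-like cells held 6.37 and 6.995 CPM and Treg-like cells 5.94 and 5.39 CPM. CD8 T-like cells, the background class, held 1.28 and 0.829 CPM. Thinned shares were 17.9% and 17.5% of migratory DC-like cells against 0.4% and 0.211% of CD8 T-like cells.

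The partner chains of Ebi3 fell in different classes. Il27, the p28 chain of IL-27, stood in migratory DC-like cells at 50.1 and 79.8 CPM, a log2 ratio of 0.67 (-0.01 to 1.41). In macrophage-like cells it stood at 15.2 and 23.8 CPM. Il12a, the p35 chain that EBI3 joins in IL-35, was found in B-like cells at 31.4 and 19.7 CPM, with 2 and 3 UMIs in migratory DC-like cells. Ebi3 and Il27 thus shared migratory DC-like cells, while Il12a was near 0 there, and Il27ra, the IL-27 receptor, stood at 91.0 and 74.1 CPM in CD4 T-like cells.

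**Figure D3:**
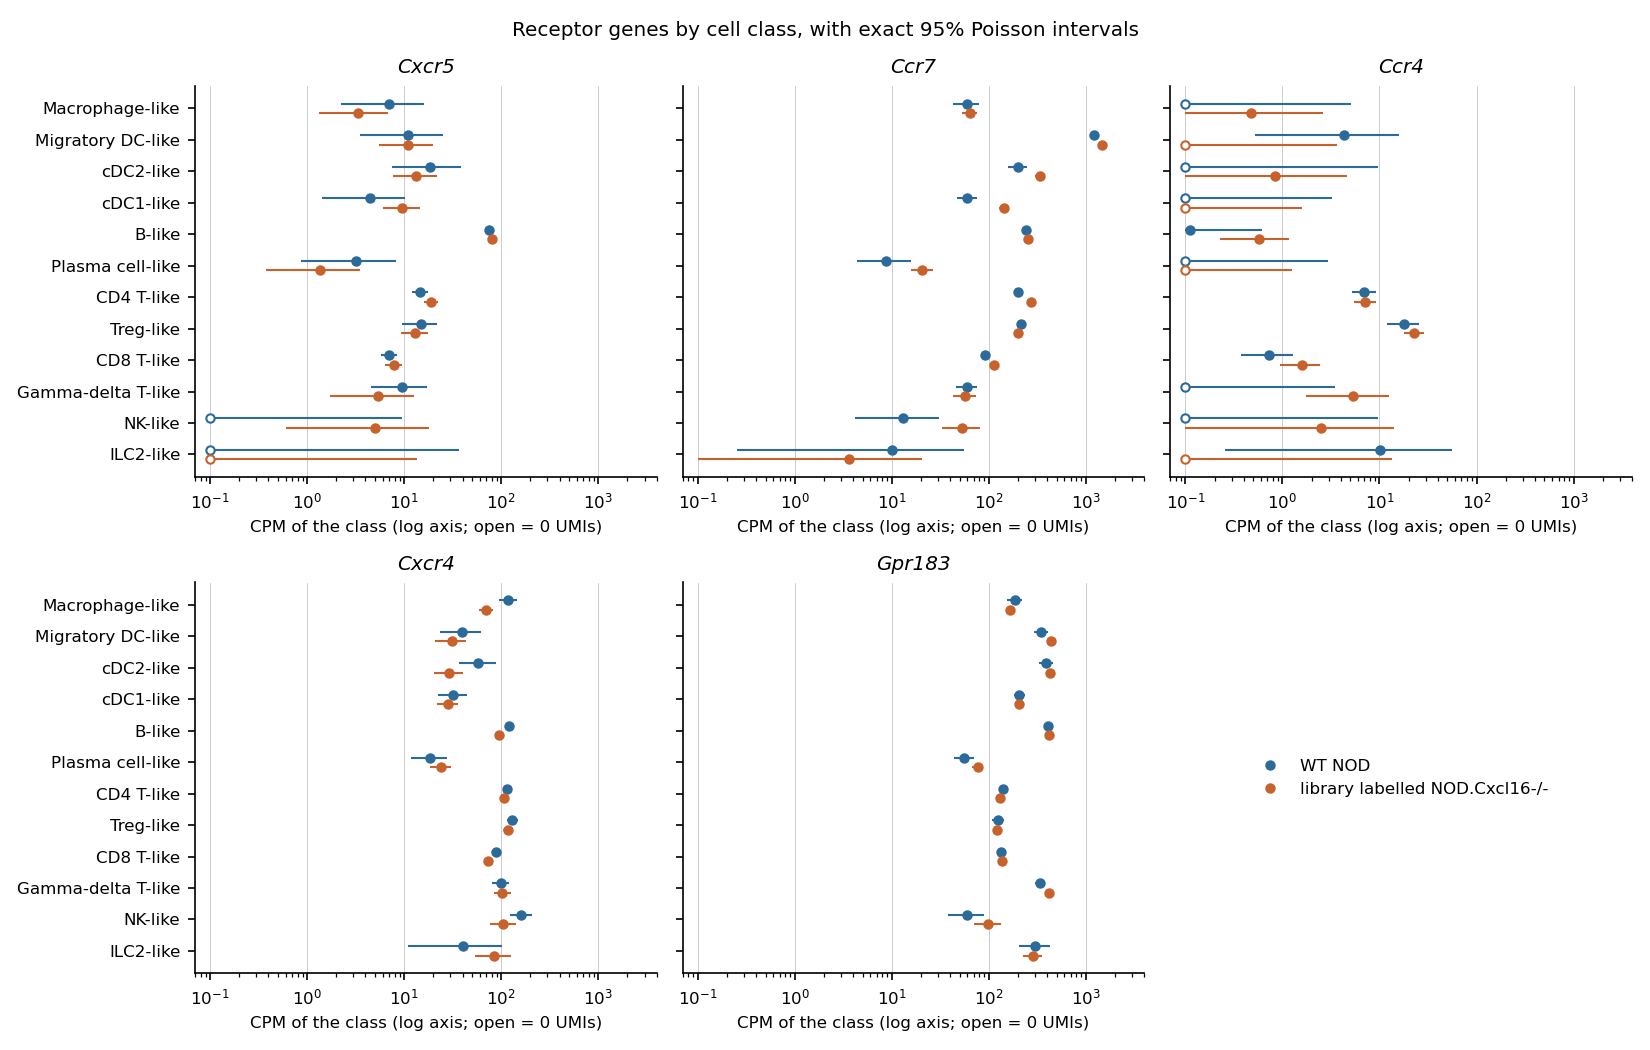
CPM of the 5 receptor genes (horizontal log axis) in 12 cell classes (rows) for WT NOD in blue and the library labelled NOD.Cxcl16-/- in orange. Points are class sums, lines are exact 95% Poisson intervals drawn from 0.1 upwards, and open points at 0.1 stand for 0 UMIs; Cxcr5 was led by B-like, Ccr7 by migratory DC-like and Ccr4 by Treg-like cells, while Cxcr4 and Gpr183 were spread over many classes.

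Cxcr5, the receptor for CXCL13, was led by B-like cells. Its level was 75.4 CPM (69.8 to 81.3) in WT NOD and, in the library labelled NOD.Cxcl16-/-, at 80.7 CPM (75.7 to 85.9), which overlap at a log2 ratio of 0.10 (-0.05 to 0.24). A UMI was found in 505 of 1816 and 710 of 2104 B-like cells, or 27.8% and 33.8%, and after thinning in 13.8% and 16.1%. Thinned shares in the background class, macrophage-like cells, were 3.33% (0.406 to 11.5) and 1.16% (0.141 to 4.14). CD4 T-like cells held 14.7 and 18.9 CPM and Treg-like cells 14.8 and 13.0 CPM, levels that did not separate. Their thinned shares, 2.78% and 2.80% for CD4 T-like and 2.97% and 1.59% for Treg-like cells, lay within the interval of the background class, which rests on 2 of 60 and 2 of 172 cells. By CPM, macrophage-like cells held 6.91 (2.24 to 16.1) in WT NOD, which overlaps CD4 T-like cells at 12.1 to 17.8. In the other library they held 3.33 CPM (1.34 to 6.85), below CD4 T-like cells at 16.1 to 22.1 and Treg-like cells at 9.34 to 17.6.

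CD4 T-like cells with a Cxcr5 UMI, 81 of 1256 and 115 of 1285, held more Sh2d1a and Tox2, 2 genes of the follicular helper programme. Sh2d1a, which encodes the adaptor SAP, stood at 484.1 against 283.5 CPM in WT NOD and at 392.9 against 291.7 CPM in the library labelled NOD.Cxcl16-/-. Tox2 stood at 151.1 against 55.8 CPM and at 94.4 against 68.6 CPM. Bcl6 was higher beside Cxcr5 in WT NOD, at 85.8 against 40.2 CPM, and close in the other library, at 56.6 against 55.1 CPM. Gpr183 was lower in cells with Cxcr5, at 103 against 144.5 CPM and at 72.7 against 144 CPM. Median depth was higher in cells with Cxcr5, 6055 and 8397 UMIs against 4062 and 4534, and its part was not tested.

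Ccr7, the T-zone homing receptor, was led by migratory DC-like cells. Its level was 1199 CPM (1101 to 1303) in WT NOD and, in the library labelled NOD.Cxcl16-/-, at 1465 CPM (1391 to 1542), with a UMI in 39 of 49 and 73 of 83 cells. The log2 ratio was 0.29 (0.15 to 0.43), or 1.22-fold, and thinned shares of 71.8% and 78.8% overlapped. Every migratory DC-like cell with a Ccl22 UMI also had a Ccr7 UMI, 16 of 16 and 26 of 26. For Ebi3 it was 15 of 18 and 36 of 37. Since 39 of 49 and 73 of 83 cells of the class had a Ccr7 UMI, much overlap would arise for any gene there. Plasma cell-like cells, the background class, had a thinned share of 3.33% and 7.41%.

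Ccr7 had a broad second tier. B-like cells held 240.2 and 252.9 CPM, Treg-like cells 214.9 and 201.8 CPM, and CD4 T-like cells 199.5 and 268.9 CPM. cDC2-like cells stood at 198.4 and 333.4 CPM, and cDC1-like cells at 60.0 and 143 CPM. The last 2 classes had log2 ratios of 0.75 (0.39 to 1.12) and 1.25 (0.87 to 1.65), higher in the library labelled NOD.Cxcl16-/- beyond counting error. Thinned shares overlapped, at 10.0% (4.12 to 19.5) and 19.7% (13.2 to 27.7) of cDC1-like cells. In cDC2-like cells they were 23.1% (8.97 to 43.7) and 36.1% (25.9 to 47.4). Macrophage gate markers summed to 127.2 and 657 CPM in cDC1-like cells and to 325.3 and 391.1 CPM in cDC2-like cells. Macrophage-like cells themselves held 59.4 and 63.7 CPM of Ccr7, and the part of macrophage transcripts in the ratios was not tested. CD8 T-like cells stood at 90.6 and 113 CPM. Naive-type CD8 T-like cells had the higher level, with 237.3 and 298.6 CPM against 41.7 and 36.5 CPM in cells with at most 1 naive gene. In CD4 T-like cells the split held in WT NOD, with 302.6 against 157.7 CPM, but was small in the other library, with 310.2 against 297.9 CPM.

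Ccr4, the receptor for CCL17 and CCL22, was led by Treg-like cells. Its level was 17.8 CPM (12.0 to 25.4) in WT NOD, with 30 UMIs in 24 of 251 cells, and, in the library labelled NOD.Cxcl16-/-, at 22.9 CPM (17.9 to 28.8), with 72 UMIs in 57 of 385 cells. The intervals overlap, and the log2 ratio was 0.36 (-0.27 to 1.02). CD4 T-like cells held 6.95 and 7.15 CPM, and these were the only other class with more than 20 UMIs in each library. Outside the classes, T cells with no subset assigned held 42 and 79 UMIs, or 4.42 and 9.06 CPM. B-like cells, the background class, had a UMI in 1 of 1816 and 7 of 2104 cells, against 9.56% and 14.8% of Treg-like cells. No Ccr4 UMI was found in plasma cell-like or cDC1-like cells, where 0 counts allow up to 2.94 and 3.26 CPM in WT NOD.

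Cxcr4, the CXCL12 receptor, was broad and without a clear leading class. NK-like cells stood at 161.1 and 105.6 CPM, Treg-like cells at 130.6 and 116.8 CPM, and CD4 T-like cells at 115 and 106.8 CPM, levels that overlap between neighbours. B-like cells held 119.9 CPM (112.8 to 127.3) in WT NOD and, in the library labelled NOD.Cxcl16-/-, 94.3 CPM (88.9 to 99.9). Their log2 ratio was -0.35 (-0.47 to -0.23). Thinned shares in B-like cells, 21.4% and 20.4%, overlapped. The gene was higher in WT NOD in 9 of the 12 classes, with macrophage-like cells at 118.9 and 70.3 CPM. Plasma cell-like cells, ILC2-like cells and gamma-delta T-like cells went the other way. The lowest class was plasma cell-like, at 18.4 and 24.0 CPM.

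Gpr183, the oxysterol receptor, was high in 4 classes, each overlapping the next in order. B-like cells held 411.4 CPM (398.3 to 425) and 414 CPM (402.7 to 425.5). Their log2 ratio was 0.01 (-0.05 to 0.07). cDC2-like cells held 388.8 and 424.5 CPM, migratory DC-like cells 346.5 and 440.2 CPM, and gamma-delta T-like cells 334.7 and 419.7 CPM. The first and last of the 4, B-like and gamma-delta T-like cells, were apart in WT NOD and overlapped in the other library. CD4 T-like cells at 139.5 and 131.8 CPM, CD8 T-like cells at 134.4 and 138.2 CPM and Treg-like cells at 124.1 and 120.9 CPM formed a lower group. Plasma cell-like cells were lowest, at 55.9 and 77.1 CPM. Unassigned barcodes, T cells with no subset assigned not among them, also held 418.9 and 424.6 CPM. Ch25h, the first enzyme of the ligand's synthesis, was counted in macrophage-like cells at 8.29 and 19.95 CPM, from 6 and 42 UMIs.

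**Figure D4:**
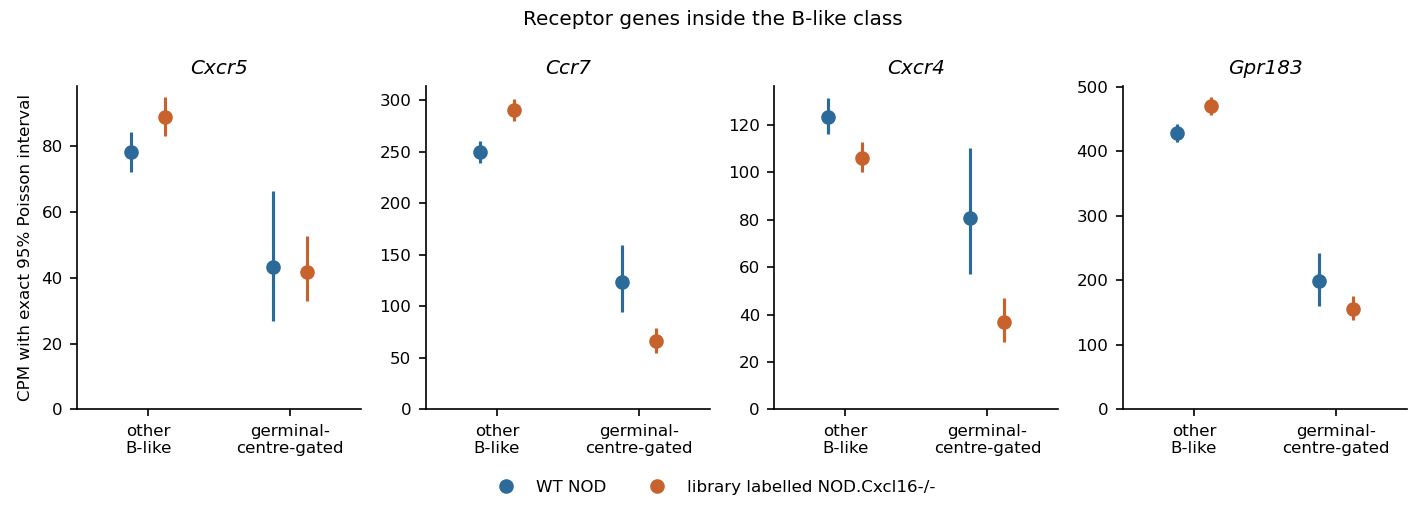
CPM of Cxcr5, Ccr7, Cxcr4 and Gpr183 (vertical axes from 0) in germinal-centre-gated B-like cells and in B-like cells outside both that gate and the cycling gate, with exact 95% Poisson intervals (blue, WT NOD; orange, library labelled NOD.Cxcl16-/-). Each receptor was lower inside the gate in both libraries, with Gpr183 at 198.4 and 155.7 CPM against 428.4 and 470.5 CPM.

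Inside the B-like class, the 4 receptor genes were lower in cells with germinal-centre transcripts. A cell was placed in that gate when at least 2 of 7 genes (Mef2b, S1pr2, Rgs13 and Bcl6 among them) had a UMI, which 46 and 97 cells did. Gpr183 stood at 198.4 CPM (160.7 to 242.2) inside against 428.4 CPM (414.5 to 442.7) outside in WT NOD. In the library labelled NOD.Cxcl16-/- it stood at 155.7 CPM (137.9 to 175.3) against 470.5 CPM (457.2 to 484.1). Ccr7 stood at 124 against 249.6 CPM and at 66.3 against 290.9 CPM, and Cxcr5 at 43.4 against 78.2 CPM and at 41.9 against 89.0 CPM. Cxcr4 stood at 80.6 against 123.5 CPM and at 36.8 against 106.2 CPM. All 4 pairs were apart beyond their intervals in both libraries. Median depth was also higher inside, 6519 and 14166 UMIs against 4423 and 4533, and its part in these levels was not tested.

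The share of B-like cells in this gate was 2.53% (1.86 to 3.36) in WT NOD and 4.61% (3.75 to 5.59) in the library labelled NOD.Cxcl16-/-. With every cell thinned to 2000 UMIs it was 0.549% (0.251 to 1.04) and 1.38% (0.920 to 1.99), from 9 of 1640 and 28 of 2026 cells, intervals that overlap. Of the 10 germinal-centre genes listed, all measured in B-like cells, 9 were more than 1.5-fold higher in the library labelled NOD.Cxcl16-/- and 0 lower, where 12.7% of all genes tested in the class passed 1.5-fold (920 higher and 580 lower of 11796). Their median log2 ratio was 1.66, beside 0.045 over all genes tested in the class. Rgs13, a regulator of G-protein signalling, stood at 10.6 and 27.2 CPM. Mybl1 stood at 1.34 and 7.64 CPM, and Bcl6, the 1 gene not past that size, at 38.0 and 44.2 CPM.

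**Figure D5:**
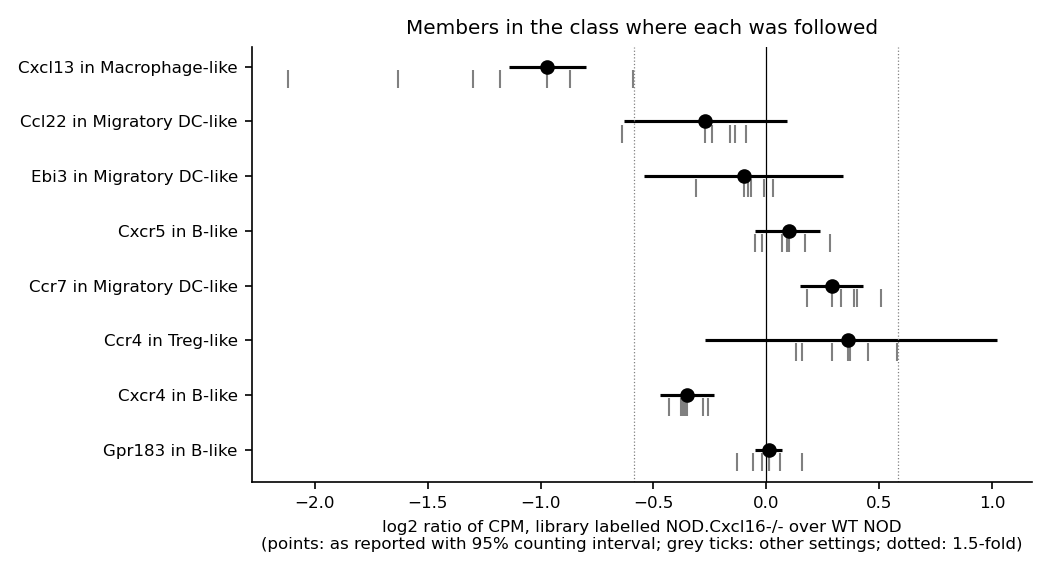
Log2 ratio of CPM, the library labelled NOD.Cxcl16-/- over WT NOD (horizontal axis), for 8 members in the class where each was followed. Black points and lines are the reported values with 95% counting intervals, grey ticks are the values under other settings and dotted lines mark 1.5-fold; Cxcl13 in macrophage-like cells, at -0.97, was the only reported value past them.

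Between libraries, the members were compared first in the class where each was followed. Of the 8 members with at least 20 UMIs there, Cxcl13 alone passed 1.5-fold, and Ccl17 had too few UMIs in migratory DC-like cells. Passing 1.5-fold goes by the ratio alone, and some of the intervals take in 0. In macrophage-like cells 3 of 6 measured members passed 1.5-fold in either direction, where 24.9% of all genes tested did. These were Cxcl13 and Cxcr4, higher in WT NOD, and Ccl22, higher in the other library. Ccl22 there rested on 4 and 18 UMIs, with an interval of -0.97 to 2.65. In migratory DC-like cells 0 of 5 passed, where 32.3% of all genes did. In B-like cells 2 of 7 passed, Cxcl13 and Ccl22, both below 4 CPM, where 12.7% of all genes did. For Treg-like cells it was 1 of 7 (Cxcl13) beside 14.4%, and for CD4 T-like cells 1 of 7 (Cxcl13) beside 9.69%. For CD8 T-like cells it was 3 of 7 (Cxcl13, Ebi3 and Ccr4), each below 4 CPM and with an interval that takes in 0, beside 10.4%. Among the other classes, 2 of 6 passed in cDC1-like cells (Cxcr5 and Ccr7, both higher in the library labelled NOD.Cxcl16-/-) beside 18.4% of all genes. Cxcr5 there rested on 5 and 22 UMIs, with an interval of -0.32 to 2.87. In cDC2-like cells 3 of 7 passed (Ccr7 higher, Ccl17 and Cxcr4 lower) beside 25.6%, and in plasma cell-like cells 2 of 4 (Ccr7 higher, Ebi3 lower) beside 40.4%. In NK-like cells 3 of 3 passed (Ccr7 and Gpr183 higher, Cxcr4 lower) beside 20.5%, in ILC2-like cells 1 of 2 (Cxcr4 higher) beside 31.0%, and in gamma-delta T-like cells 0 of 3 beside 19.2%.

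Over all kept barcodes, whatever their class, some members differed in another way than in their class. Cxcl13 stood at 36.1 CPM in WT NOD and 49.95 CPM in the other library, a log2 ratio of 0.47 against -0.97 in macrophage-like cells, and 0.31 without mixed-lineage barcodes. Ccl22 stood at 4.08 and 11.1 CPM, at 1.45 against -0.27 in migratory DC-like cells, and 0.67 without mixed-lineage barcodes, which held 20.6% and 60.3% of its UMIs. Cxcr4 stood at 106 and 77.9 CPM, at -0.44, and Gpr183 at 216.5 and 228.1 CPM, at 0.08. These totals also move with how many cells of each class a library holds: kept migratory DC-like cells numbered 49 and 83, and macrophage-like cells 68 and 182.

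Other genes of the same pathways were read from lists. Of 13 partner genes, 5 were measured with at least 20 UMIs in macrophage-like cells, where, in the library labelled NOD.Cxcl16-/-, 2 were past 1.5-fold higher and 1 lower, beside 24.9% of all genes in either direction. The lower one was Ccl19, a CCR7 ligand, at 49.8 and 15.2 CPM, a log2 ratio of -1.71 (-2.44 to -0.98) from 36 and 32 UMIs. The higher 2 were Ch25h and Il27, with values given above. In migratory DC-like cells 4 were measured, with Il27 and Il6st, the shared gp130 receptor chain, higher and none lower, where 32.3% of all genes passed (1433 higher and 538 lower). Cxcl12, Ccl21a and Ackr4, which in lymphoid organs come mainly from stromal cells, had 0 UMIs in migratory DC-like cells, as they did in CD4 T-like cells for Cxcl12 and Ccl21a. The sort took CD45-bearing cells, so stromal sources of these chemokines were not sampled.

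Of 12 follicular helper genes, all measured in CD4 T-like cells, 1 was past 1.5-fold higher in the library labelled NOD.Cxcl16-/- and 0 lower, beside 9.69% of all genes in either direction, with a median log2 ratio of -0.04 beside 0.02 over all genes. That one was Il4, the type 2 helper cytokine, at 0.834 and 5.48 CPM, and it rested on 6 UMIs in 2 cells and 46 UMIs in 5 cells. Bcl6 stood at 45.7 and 55.4 CPM, Il21 at 88.9 and 68.2 CPM, and Icos, a costimulatory receptor, at 466.8 and 552.9 CPM. Of 11 lymphotoxin and TNF family genes, 9 were measured in CD4 T-like cells and 0 passed in either direction. Ltb, which encodes the lymphotoxin beta chain that induces follicle chemokines, stood at 757.7 and 752.9 CPM there and at 807.4 and 708.6 CPM in B-like cells. In B-like cells 7 were measured, with 1 higher, Tnfsf13b (BAFF), at 1.45 and 2.52 CPM, beside 12.7% of all genes.

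Genes with the most similar pattern over classes were ranked by Pearson correlation of log2(CPM + 1) over 24 points, 12 classes in each of 2 libraries, which share depth and libraries. Among the closest to Cxcl13 was Cp (r = 0.87). The closest to Ccl17 was Plet1 (0.86), and to Ccl22 Stap2 (0.97) and Plppr4 (0.96). Closest to Ebi3 was Ube2l6 (0.90), to Cxcr5 Washc4 (0.82), to Ccr7 Zfc3h1 (0.88) and to Ccr4 Ncmap (0.81). Cxcr4 was nearest to Fam133b (0.90), and Gpr183 to 2010315B03Rik (0.82). Among the members themselves, Ccl22 and Ebi3 were the most alike, at 0.80, followed by Cxcr5 and Ccr7 at 0.78.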

How the data were processed

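The deposited matrices hold whole-number counts of UMIs per gene and barcode, per the file headers. The submitters' processing notes name Cell Ranger 7.0.1 and mm10, and whether intronic reads were counted is not given in the sources used here. Barcodes with at least 500 genes and at most 10% mitochondrial UMIs were kept. Doublets were removed as the highest scores against simulated doublets, 0.8% per 1000 barcodes (1537 in WT NOD and 891 in the library labelled NOD.Cxcl16-/-). Each barcode was classed by marker gates that use none of the 9 members, and barcodes passing gates of more than 1 lineage were left out. UMIs were summed per class and library and divided by the class total (CPM). Log2 ratios have no pseudocount, need at least 20 UMIs over both libraries and carry an exact conditional binomial interval. Intervals and limits of 0 counts cover counting error only, since 1 library per group gives no replicate spread. Shares were also computed after thinning to 2000 UMIs, which left out 176 and 78 B-like cells. All 9 members are named, list genes with at least 20 UMIs over both libraries or to state a low count, and the genes most alike each member by correlation (at least 10 CPM in 1 class and library and 50 UMIs in all, gate markers left out). The members, lists and gates were chosen with earlier results of these data known, and the splits of CD4 T-like and macrophage-like cells by Cxcl13 UMIs, the genes read in them and the promoter motif after values were seen. The 8 kinds of alternative tried were lower gene minimum, doublets kept, mixed barcodes kept, stricter gates, clusters, mean CPM per cell, 2-fold and thinning to 1000 UMIs. The ratio, thinning and gates were tested on simulated data. Of the gene IDs, 32158 of 32285 matched GENCODE M21 (GRCm38). Tools were Python 3.11.15, NumPy 2.4.6, SciPy 1.17.1, pandas 2.3.3, scikit-learn 1.9.0 and leidenalg 0.10.2. Values of some single genes are not reported here.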

Additional observations from a re-analysis of the deposited data

Results flagged for a closer look

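Cxcl13 differed between libraries in opposite directions in different cell classes. Its log2 ratio, the library labelled NOD.Cxcl16-/- over WT NOD, was -0.97 in macrophage-like cells, 0.84 in CD4 T-like cells, 1.17 in B-like cells and 3.65 in Treg-like cells, each with a counting interval that leaves out 0. The CD4 T-like ratio was -0.64 with mixed-lineage barcodes kept, and 0.17 (-0.04 to 0.38) when the richest barcode of each library was then left out. CD8 T-like cells were at -0.60 (-1.295 to 0.06). T cells with no subset assigned stood at 27.5 CPM in WT NOD and 17.2 CPM in the other library. The difference between the classes was not tested, with 1 library per group. In Treg-like cells 1 cell held 80 of the 94 UMIs. In B-like cells the totals were 12 and 37 UMIs, and 1 cell held 14 of the 37. Thinned shares of B-like cells, the background class for this gene, were 0.549% and 0.444%. The counting intervals take no account of such clumping.

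Much of the Cxcl13 signal lay in barcodes that the comparisons leave out. Mixed-lineage barcodes held 50.4% of all Cxcl13 UMIs in WT NOD and 61.9% in the library labelled NOD.Cxcl16-/-. In WT NOD 99.2% of those UMIs were in mixed barcodes that passed the macrophage gate, and in the other library 97.6%. All 1040 of those WT NOD UMIs were in barcodes that passed the T gate, as were 74.1% of them in the other library. Few barcodes set much of the WT NOD share: the richest of 446 held 467 of the 1040 UMIs, and another held 336. In the other library the richest of 609 held 346 of 2365. The median depth of mixed barcodes was 3301.5 UMIs in WT NOD and 17177 in the other library. Over all kept barcodes it was 3871 and 4900 UMIs. The part of depth in these shares was not tested.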

How the results depend on the processing

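No paired analysis was possible because each group has 1 library, and for the same reason no replicate could be left out. Cxcl13 in macrophage-like cells, at a log2 ratio of -0.97, was -2.12 with doublets kept, -0.59 with mixed-lineage barcodes kept, -1.18 with 1 marker more, -1.63 with clusters and -1.30 without the richest cell. Ccl22 in migratory DC-like cells was -0.64 with doublets kept, and Ccr7 there was 0.51 as a mean over cells. In B-like cells Cxcr5 was -0.05 with clusters and 0.28 as a mean over cells, and Gpr183 was -0.06 with mixed-lineage barcodes kept, -0.13 with clusters and 0.16 as a mean over cells. The number of members past 1.5-fold, 1, became 2 with doublets kept and 0 at 2-fold. The class with the highest level was the same for 4 of 9 members with clusters, where no cluster was named migratory DC-like and so 3 ratios have no value. Shares of cells with a UMI were apart between libraries for 0 members at 2000 UMIs and for 1, Gpr183, at 1000. Cxcl13 in CD4 T-like cells reversed from 0.84 to -0.64 with mixed-lineage barcodes kept, and was 0.17 when the richest barcode of each library was then left out, a setting chosen after seeing the data. Of 53 ratios under other settings, in the classes where members were followed, 41 stayed inside the reported counting interval and 47 kept their sign. This count leaves out Cxcl13 in CD4 T-like and Treg-like cells and Ccl17 in cDC2-like cells. The cause of the other shifts was not tested. Depth limits Ccr4 and Ccl17 most, with 30 and 4 UMIs in WT NOD in the classes where they were followed.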
